A study of Xenopus tropicalis with 15 samples.

Results

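The genes described here belong to the Hippo pathway, the kinase cascade that controls the coactivators Yap and Taz. They were chosen by symbol, as the gene models whose name in the deposited files is yap1, wwtr1 (the gene of Taz), tead1, tead2, tead3, tead4, lats1, lats2, sav1 or nf2. Of these 10 symbols 8 were found, each as 1 model among the 34192 models in the files. No model carries the symbol tead2 or tead3, so those genes were not analysed here. All 8 models passed the filter on low counts, as did 18823 models in all. yap1 (gene32764 in the files) rested on 93 to 319 estimated counts per library and wwtr1 (gene22258) on 126 to 525. tead4 (gene8048) had 2248 to 4815, and the counts of tead1 (gene17417), lats1 (gene20417), lats2 (gene835), sav1 (gene6862) and nf2 (gene23298) lay between 197 and 1249.

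In this pathway the kinases Stk3 and Stk4, held by the scaffold Sav1 and helped by the membrane-linked protein Nf2, activate the kinases Lats1 and Lats2. Active Lats kinases phosphorylate Yap and Taz and keep them out of the nucleus, and coactivators that escape this bind Tead factors on DNA and switch on genes of growth and of the extracellular matrix. Lats2 and several inhibitors are themselves known targets of Yap in mammals. In tadpoles of Xenopus laevis, Yap1 and Tead4 are known to control how large the regrown tail becomes. Control of Yap and Taz acts largely on the proteins, which RNA levels do not show.

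Tail tissue of wild-type Xenopus tropicalis tadpoles, amputated at NF stage 41 and 3 days of age, was sequenced as total RNA in 15 libraries, 3 for each of 5 groups. The 0 hpa group (hours post amputation) was untreated tissue from the 250 µm next to the cut, and the remaining groups were regenerating tissue of the same length taken 24 hours after amputation from animals kept at 23 °C. These had been reared in 0.1% DMSO, the solvent control, in 5 µM 2-methoxyestradiol (2ME), in 0.5 µM echinomycin or in 10 µM IWR-1. 2ME binds tubulin and lowers Hif1a protein, echinomycin binds DNA and keeps Hif1 from its sites, and IWR-1 inhibits tankyrase and thereby Wnt signalling. The labels of the IWR samples read IWR-1, IWR-2 and IWR-3, but the stated design has only IWR-1, and they are treated as that compound here. The DMSO and 0 hpa groups differ in time, solvent and place along the tail at once, and these cannot be told apart.

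The libraries held 17.3 to 23.4 M estimated counts, so a count of 0 allowed a level of up to 0.128 to 0.173 CPM (counts per M library counts, 3 counts), a limit that covers counting error only. Each value called normalised CPM below is scaled with TMM factors and serves to compare libraries, and TPM values, which divide by transcript length, serve to compare genes. Levels are given as mean ± SD and log2 ratios as value ± SE, with n = 3 libraries per group throughout. A change is called when the adjusted p of edgeR's quasi-likelihood test is under 0.05. The labels do not say whether the replicates were separate clutches or pools, so a p-value here reflects the spread among the samples alone, which may be technical. Because the tissue was sequenced in bulk, fewer cells of a type and less RNA per cell cannot be told apart. The level of cell type marker RNA differed between groups. The 10 muscle markers summed to between 18400 and 20900 normalised CPM at 0 hpa, 1540 to 2020 with DMSO, 2130 to 3380 with 2ME, 4670 to 5670 with echinomycin and 4140 to 4740 with IWR-1. None of the marker genes of any of the 9 cell types was at 0 in a group. The part of tissue makeup in the results below was not tested.

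Libraries of the same group also differed along a shared axis on which 2 of the 8 genes lie near the end. This axis, found after the data had been seen, is the leading component of the differences between libraries within groups over the 12231 models with a mean over 5 CPM, and it held 25.4% of the within-group variance. The scores were 1.42, 19.4 and 5.09 for the 0 hpa libraries, -18.07, -24.7 and -9.53 for DMSO, 7.70, -1.69 and -4.39 for 2ME, -11.5, 7.76 and 7.42 for echinomycin, and -0.30, 7.71 and 13.7 for IWR-1. DMSO replicates 1 and 2 lay below every other library. The loading of yap1 was at percentile 99.4 of all models and that of wwtr1 at 99.2, whereas tead1 was at 12.9 and the other 5 genes lay between 42.7 and 58.1. Across the 15 libraries, deviations from the group means correlated with the axis with r = 0.90 for yap1, 0.84 for wwtr1, -0.56 for tead1 and between -0.16 and 0.19 for the other 5, a description that includes each gene's own share in the axis. Since the DMSO group lies low on the axis, group and axis cannot be told apart for yap1 and wwtr1, and values with the axis score as a covariate are given beside the results. That covariate also removes any group difference lying along the axis.

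The coactivator genes yap1 and wwtr1 were lowest in the DMSO-treated regenerating tissue and higher in each of the other 4 groups. yap1 encodes the coactivator Yap. It read 10.6, 12.2 and 9.19 normalised CPM at 0 hpa and 5.62, 4.47 and 7.26 with DMSO at 24 hpa. Its values were 10.9, 9.94 and 9.85 normalised CPM with 2ME, 8.37, 13.9 and 14.9 with echinomycin, and 11.2, 13.3 and 14.7 with IWR-1. Every DMSO library lay below every library of the other groups, and the first echinomycin library stood apart from its group at the low end, as it did on the axis. The level fell by 0.88 ± 0.21 on the log2 scale from 0 hpa to DMSO (adjusted p = 0.00136). Relative to DMSO, the log2 ratio of yap1 was 0.82 ± 0.20 with 2ME (adjusted p = 0.00637), 1.09 ± 0.20 with echinomycin (0.000261) and 1.17 ± 0.20 with IWR-1 (0.000212). With the axis score as a covariate these ratios became -0.11 (adjusted p = 0.651), 0.30 (0.203), 0.52 (0.0126) and 0.45 (0.0796), so the rise with echinomycin was the call of the 4 that remained.

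wwtr1 encodes Taz, the paralogous coactivator. It read 12.7, 18.14 and 12.3 normalised CPM at 0 hpa and 7.19, 6.06 and 10.0 with DMSO. The values were 22.0, 16.9 and 18.3 normalised CPM with 2ME, 16.4, 17.8 and 18.9 with echinomycin, and 14.7, 21.9 and 24.2 with IWR-1. As for yap1, the DMSO libraries lay below all others, with DMSO replicate 3 the highest of its group for both genes. The level of wwtr1 fell by 0.89 ± 0.21 on the log2 scale from 0 hpa to DMSO (adjusted p = 0.0014). Against DMSO its log2 ratio was 1.29 ± 0.20 with 2ME (adjusted p = 0.000245), 1.18 ± 0.20 with echinomycin (0.000142) and 1.37 ± 0.20 with IWR-1 (5.32e-05). With the axis score as a covariate the fall was -0.16 (adjusted p = 0.551), and the ratios to DMSO were 0.80 (0.00375), 0.68 (0.00348) and 0.69 (0.0169), all still called. Within groups the deviations of yap1 and wwtr1 correlated with r = 0.75 over the 15 libraries.

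No difference between the 3 compounds was called in these coactivator genes. For yap1 the log2 ratio of IWR-1 to 2ME was 0.35 ± 0.19 (interval -0.07 to 0.77), that of echinomycin to 2ME was 0.28 (-0.15 to 0.70) and that of IWR-1 to echinomycin was 0.07 (-0.34 to 0.49), none of them called. For wwtr1 the same ratios were 0.09 (-0.33 to 0.50), -0.11 (-0.53 to 0.31) and 0.19 (-0.23 to 0.61). The intervals do not show that the compounds act alike, and for yap1 the IWR-1 libraries all lay above the 2ME libraries. Against 0 hpa, yap1 was called with no compound, and wwtr1 with IWR-1 alone (log2 ratio 0.49 ± 0.19, adjusted p = 0.042), although libraries of those groups overlapped. That call was lost with upper-quartile factors (adjusted p = 0.0704), with the replicate block (0.0507), with a fit of the 2 groups (0.0562) and without 0 hpa replicate 1 or 3, DMSO replicate 1 or IWR-1 replicate 2 or 3 (up to 0.184). In TPM, yap1 stood below wwtr1 in every group, with a ratio between 0.447 ± 0.0385 with 2ME and 0.624 ± 0.0691 at 0 hpa.

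**Figure D1:**
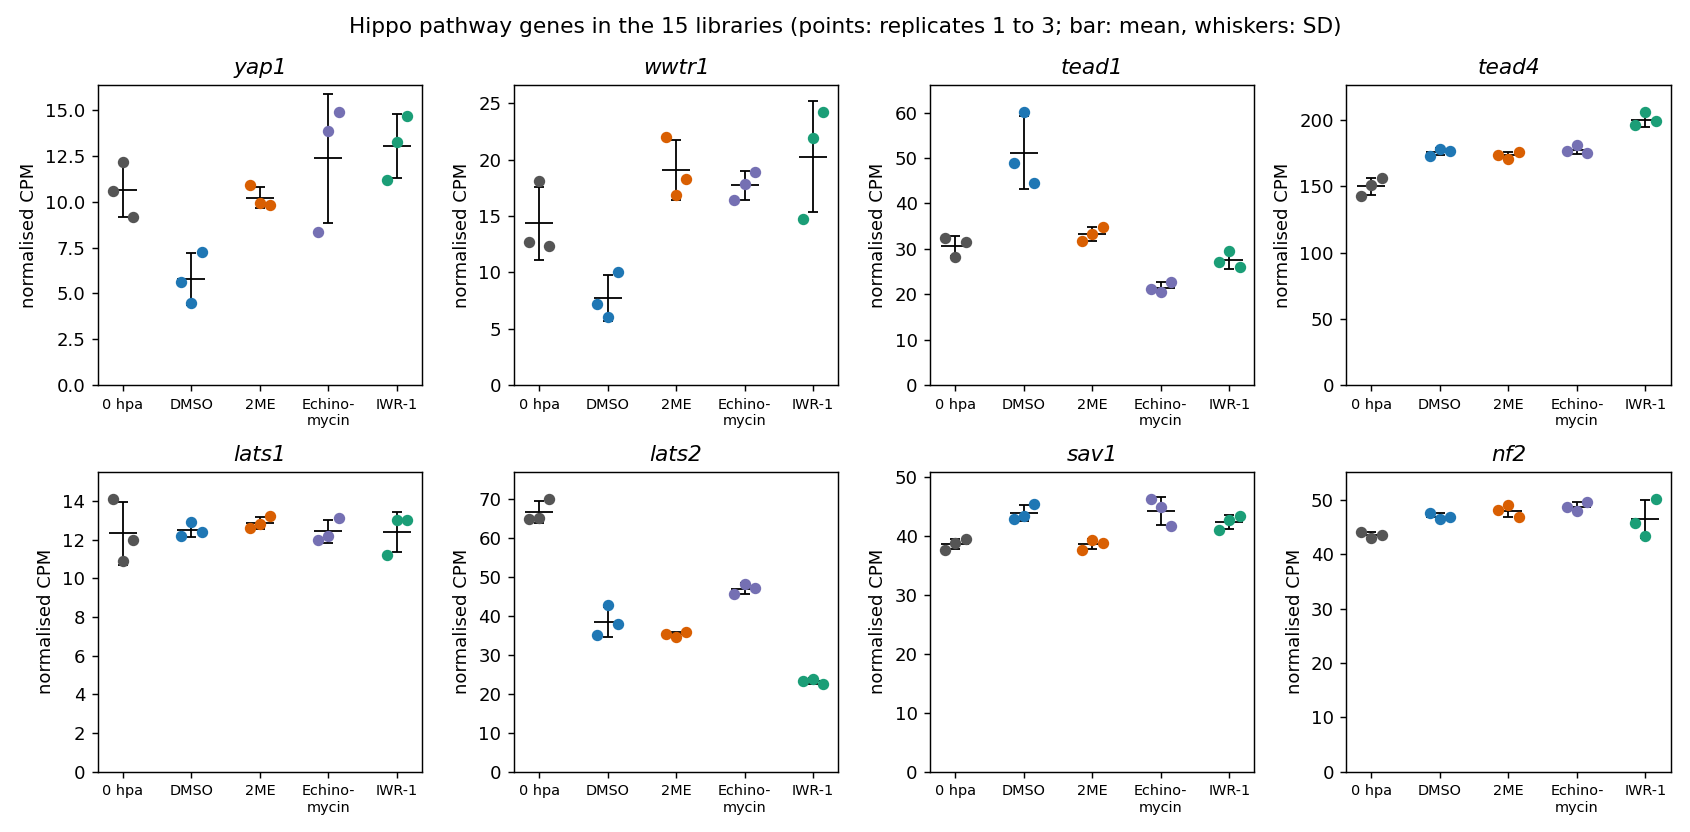
Normalised CPM of the 8 Hippo pathway genes in the 5 groups, 1 panel per gene with its own vertical axis. Points are libraries, bars are means and whiskers are SD (n = 3). DMSO libraries are lowest for yap1 and wwtr1 and highest for tead1, and IWR-1 libraries are highest for tead4 and lowest for lats2.

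**Figure D2:**
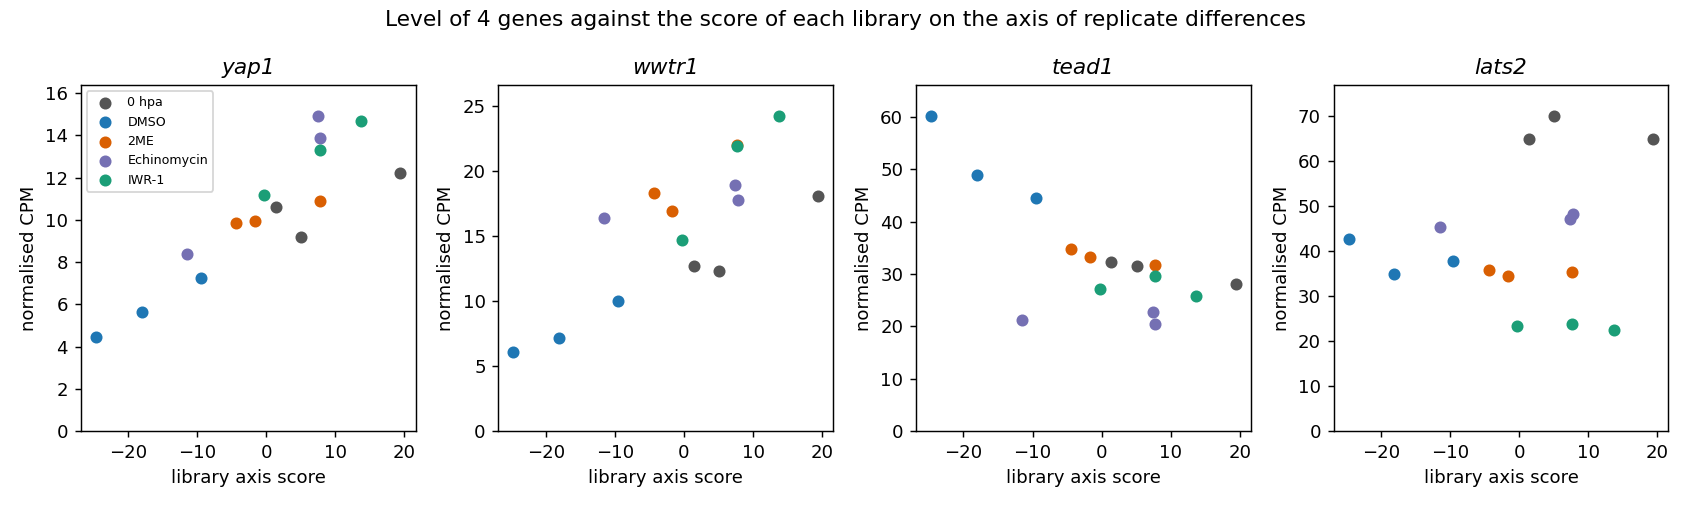
Normalised CPM of yap1, wwtr1, tead1 and lats2 (vertical axes) against the score of each library on the axis of within-group differences (horizontal axis), coloured by group. Libraries of a group with a higher score tend to have more yap1 and wwtr1. The DMSO libraries sit toward the low end, from -24.7 to -9.53, with echinomycin replicate 1 within that range at -11.5.

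The Tead genes moved in different ways. tead1 encodes a Tead factor, the DNA-binding partner of Yap and Taz, and it ran opposite to the coactivators. It read 32.4, 28.2 and 31.5 normalised CPM at 0 hpa and 48.9, 60.1 and 44.6 with DMSO. The values were 31.7, 33.2 and 34.8 normalised CPM with 2ME, 21.2, 20.4 and 22.8 with echinomycin, and 27.1, 29.6 and 25.9 with IWR-1. The DMSO libraries lay above all others, and the echinomycin libraries lay below all others. tead1 rose by a log2 ratio of 0.74 ± 0.097 from 0 hpa to DMSO (adjusted p = 4.30e-06). Against DMSO its log2 ratio was -0.62 ± 0.095 with 2ME (adjusted p = 0.000186), -1.26 ± 0.098 with echinomycin (4.83e-08) and -0.89 ± 0.096 with IWR-1 (2.61e-06). With the axis score as a covariate all 4 calls held, at 0.50, -0.46, -1.08 and -0.67. Echinomycin was the compound whose level also lay below 0 hpa (log2 ratio -0.52 ± 0.10, adjusted p = 0.00033), below 2ME (-0.63, 6.69e-05) and below IWR-1 (IWR-1 over echinomycin 0.36, 0.00952). The ratio of IWR-1 to 2ME was -0.27 ± 0.097 (interval -0.49 to -0.06, adjusted p = 0.0545), and those groups did not overlap.

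tead4 encodes the Tead factor tied to tail size in Xenopus laevis. Its changes were small beside those of tead1, and its replicates were close. It read 143, 151 and 156 normalised CPM at 0 hpa, 173, 178 and 177 with DMSO, and 174, 171 and 176 with 2ME. With echinomycin it read 177, 181 and 175 normalised CPM, and with IWR-1 it read 196, 206 and 199. The 0 hpa libraries lay below all others and the IWR-1 libraries above all others, with the remaining 3 groups overlapping in between. The log2 ratio of DMSO to 0 hpa was 0.23 ± 0.048 (adjusted p = 0.000501), and that of IWR-1 to DMSO was 0.19 ± 0.048 (0.00522). The ratio to DMSO was -0.02 with 2ME (interval -0.13 to 0.09) and 0.01 with echinomycin (-0.09 to 0.12), neither called. The echinomycin ratio was called at 0.16 (adjusted p = 0.0166) when libraries were not scaled beyond their size. It was also called with upper-quartile factors (0.12, 0.0429) and with limma (0.16, 0.0116). With the axis score as a covariate the IWR-1 ratio was 0.17 and lost its call (adjusted p = 0.0973). tead4 was also higher with IWR-1 than with 2ME (log2 ratio 0.21 ± 0.048, adjusted p = 0.00518) and than with echinomycin (0.17 ± 0.048, 0.0103), the second of which was lost with upper-quartile factors (0.11, 0.072) and without IWR-1 replicate 2 (0.052).

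Per length, tead4 RNA exceeded tead1 RNA in every library. The TPM of tead4 over that of tead1 was 2.29 ± 0.221 at 0 hpa, 1.63 ± 0.236 with DMSO, 2.44 ± 0.10 with 2ME, 3.87 ± 0.286 with echinomycin and 3.40 ± 0.168 with IWR-1. The DMSO group thus had the most tead1 relative to tead4, and these ratios are given as a description with no test.

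The Lats kinase genes differed from each other. lats1 encodes a kinase that phosphorylates Yap and Taz, and no change of it was called in any of the 10 comparisons of groups. It read 14.1, 10.9 and 12.0 normalised CPM at 0 hpa, 12.2, 12.9 and 12.4 with DMSO, and 12.6, 12.8 and 13.2 with 2ME. With echinomycin it read 12.0, 12.2 and 13.1 normalised CPM, and with IWR-1 it read 11.2, 13 and 13. All 5 groups overlapped. The log2 ratio of lats1 was 0.03 for DMSO over 0 hpa (interval -0.20 to 0.26), 0.04 for 2ME over DMSO (-0.18 to 0.26), and -0.01 for echinomycin and for IWR-1 over DMSO (both -0.24 to 0.21).

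lats2 encodes the paralogous kinase and gave the largest difference of any of the 8 genes between the 0 hpa and IWR-1 groups. It read 64.9, 65.0 and 70.0 normalised CPM at 0 hpa and 35.0, 42.7 and 37.8 with DMSO. The values were 35.3, 34.6 and 35.8 normalised CPM with 2ME, 45.5, 48.3 and 47.2 with echinomycin, and 23.3, 23.9 and 22.5 with IWR-1. The 0 hpa libraries were above all others, followed by echinomycin, then by DMSO and 2ME, which overlapped, and IWR-1 libraries were below all others. lats2 fell by 0.79 ± 0.068 on the log2 scale from 0 hpa to DMSO (adjusted p = 2.73e-08). Against DMSO its log2 ratio was 0.29 ± 0.068 with echinomycin (adjusted p = 0.00206) and -0.73 ± 0.070 with IWR-1 (8.27e-07). With 2ME it was -0.13 ± 0.068 (interval -0.28 to 0.02, adjusted p = 0.168).

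Every pair of compounds was called apart in lats2. The log2 ratio of lats2 was 0.42 ± 0.068 for echinomycin over 2ME (adjusted p = 0.000101), -0.60 ± 0.070 for IWR-1 over 2ME (1.31e-05) and -1.01 ± 0.070 for IWR-1 over echinomycin (1.91e-08). With the axis score as a covariate the changes of lats2 against 0 hpa and DMSO kept their calls, at -0.83 for DMSO over 0 hpa, 0.31 for echinomycin and -0.69 for IWR-1. Levels of lats2 at 24 hpa were below 0 hpa in every group, down to a log2 ratio of -1.52 ± 0.070 with IWR-1 (adjusted p = 2.39e-11), where it fell by 65.1%. The TPM of lats2 over that of lats1 was 3.27 ± 0.458 at 0 hpa, 1.84 ± 0.126 with DMSO, 1.64 ± 0.0289 with 2ME, 2.27 ± 0.105 with echinomycin and 1.12 ± 0.107 with IWR-1. Endothelial markers were ordered in part like lats2: the 8 of them summed to between 170 and 174 normalised CPM at 0 hpa, 47.4 to 56.3 with DMSO, 44.6 to 58.4 with 2ME and 80.2 to 96.1 with echinomycin, but 57.5 to 70.7 with IWR-1, where lats2 was lowest. Summed markers of fibroblasts, notochord, muscle, melanophores and red blood cells were likewise higher at 0 hpa and with echinomycin than with DMSO and 2ME. The notochord sum does not stand for each of its 5 markers. From 0 hpa to DMSO 3 of them were called higher and 2 lower (median log2 ratio 0.497). Of the 7 red blood cell markers 2 were called higher and 0 lower with echinomycin over DMSO, where 24.6% of all models were called higher. Their sum ran from 1660 to 6880 normalised CPM at 0 hpa. The order was thus not particular to endothelium, while epidermis, leukocyte and spinal cord markers did not share it.

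The scaffold gene sav1 and the membrane-linked gene nf2 varied little. sav1 encodes the partner that holds Stk3 and Stk4. It read 37.7, 38.8 and 39.5 normalised CPM at 0 hpa, 42.9, 43.4 and 45.5 with DMSO, and 37.7, 39.4 and 38.9 with 2ME. With echinomycin it read 46.3, 45.0 and 41.7 normalised CPM, and with IWR-1 it read 41.0, 42.7 and 43.4. The DMSO libraries lay above those at 0 hpa and with 2ME and overlapped those with echinomycin and IWR-1. The log2 ratio was 0.18 ± 0.058 for DMSO over 0 hpa (adjusted p = 0.0104) and -0.19 ± 0.057 for 2ME over DMSO (0.0213). sav1 was also called higher with echinomycin than at 0 hpa (0.20 ± 0.058, adjusted p = 0.00757) and than with 2ME (0.20 ± 0.057, 0.00907). Both of these calls were kept in every setting, with adjusted p up to 0.036 and 0.0425. The ratio of echinomycin to DMSO was 0.01 and was called without a scaling factor (0.16, 0.0387) and with limma (0.16, 0.0374). The calls of sav1 for DMSO over 0 hpa and for 2ME over DMSO rest on single libraries and on the settings. The call for DMSO over 0 hpa ended without 0 hpa replicate 1 (adjusted p = 0.0718), without DMSO replicate 3 (0.0755), with upper-quartile factors (0.174) and with the axis score as a covariate (0.107). The call for 2ME over DMSO ended without DMSO replicate 2 (0.0585), DMSO replicate 3 (0.105) or 2ME replicate 1 (0.0859), and without a scaling factor (-0.05, 0.60). It also ended with limma (0.602), without the filter on low counts (0.0626), with a fit of the 2 groups (0.0584) and with the axis score as a covariate (0.103).

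nf2 encodes Merlin, which recruits the Lats kinases to the membrane. It read 44.1, 43.0 and 43.5 normalised CPM at 0 hpa, 47.6, 46.5 and 46.8 with DMSO, and 48.2, 49.1 and 46.9 with 2ME. With echinomycin it read 48.7, 47.9 and 49.7 normalised CPM, and with IWR-1 it read 45.8, 43.3 and 50.2. The 0 hpa libraries lay below those with DMSO, 2ME and echinomycin. The log2 ratio of DMSO to 0 hpa was 0.11 ± 0.058 (interval -0.02 to 0.24, adjusted p = 0.112), and no comparison with DMSO was called for nf2. Against 0 hpa it was called with 2ME (0.14 ± 0.058, adjusted p = 0.0447) and with echinomycin (0.16 ± 0.058, 0.0236). The 2ME call of nf2 was lost in 7 of 10 alternative settings and in 9 of the 15 fits that left out a library (0 hpa replicates 1, 2 and 3, DMSO replicates 1, 2 and 3, 2ME replicates 1 and 2 and echinomycin replicate 1), and the echinomycin call in 2 settings and without 0 hpa replicate 2 or 3 or echinomycin replicate 3. The ratio of 2ME to DMSO was 0.03 and that of echinomycin to DMSO was 0.05, and both were called, at 0.17 and 0.20, when libraries were not scaled beyond their size (adjusted p = 0.0435 and 0.0131). Both were also called with limma (0.0406 and 0.0119), and the echinomycin ratio with upper-quartile factors (0.16, 0.032).

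**Figure D3:**
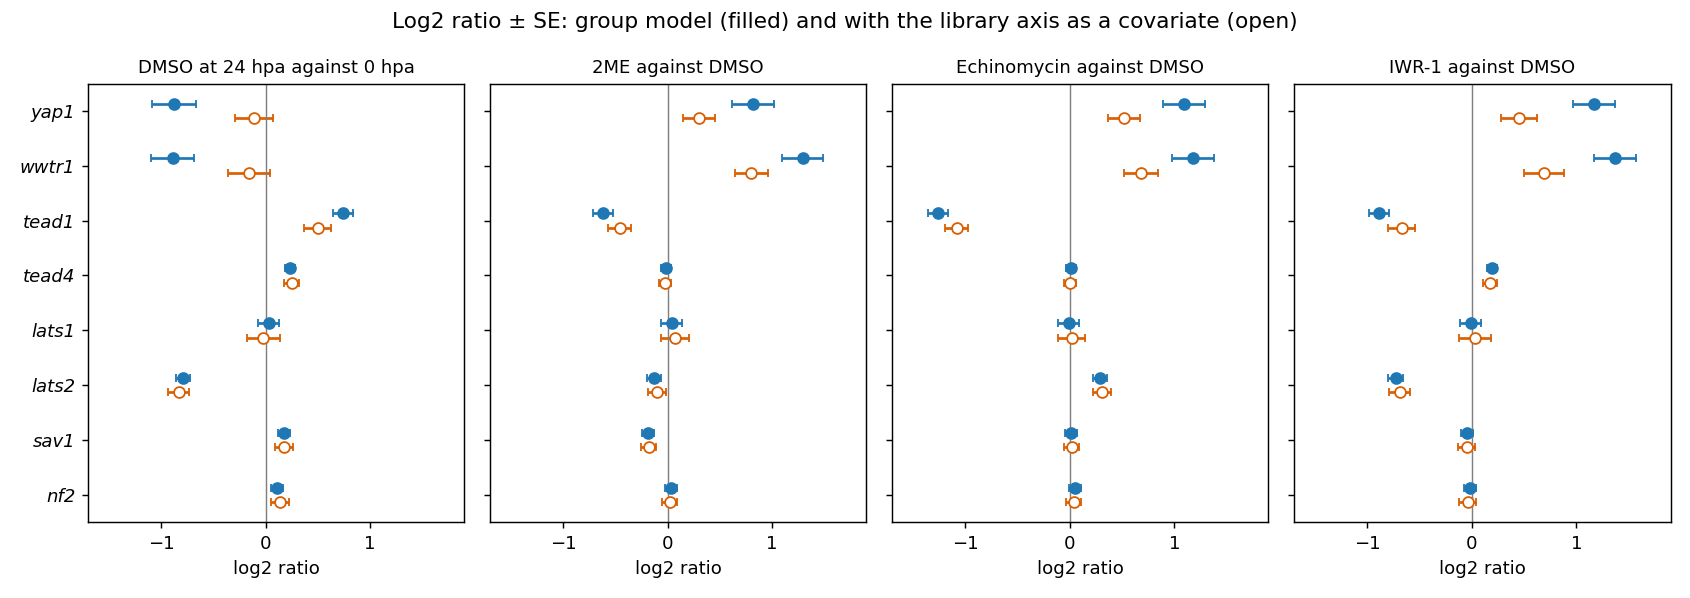
Log2 ratio ± SE of the 8 genes in the 4 comparisons (horizontal axis, log2 units), filled for the model of the 5 groups and open with the score on the axis of library differences added as a covariate. The open points of yap1 and wwtr1 lie nearer to 0, with yap1 moving from -0.88 to -0.11 in DMSO over 0 hpa, and those of lats2 and tead4 stay close to the filled points.

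Counted over the 8 genes, 6 were called between DMSO at 24 hpa and 0 hpa, where 63% of all tested models were called. Of these, 3 were higher (tead1, tead4, sav1), against 32.2% of all models, and 3 lower (yap1, wwtr1, lats2), against 30.8%. With 2ME 4 of 8 were called, against 30.5%, with yap1 and wwtr1 higher (14% of all models) and tead1 and sav1 lower (16.5%). With echinomycin 4 of 8 were called, against 51.6%, with yap1, wwtr1 and lats2 higher (24.6%) and tead1 lower (27%). With IWR-1 5 of 8 were called, against 42.3%, with yap1, wwtr1 and tead4 higher (19.9%) and tead1 and lats2 lower (22.4%). The groups did not overlap for 7 of the 8 genes in DMSO over 0 hpa, where this held for 66.8% of all models, for 4 with 2ME (45.2%), 5 with echinomycin (57.2%) and 5 with IWR-1 (52.2%). The shares called in either direction are near the background, or above it by fewer than 2 genes, so nothing is read from the number of genes called. Median log2 ratios over the 8 genes were 0.068, 0.007, 0.034 and -0.015 in the 4 comparisons, beside 0.001, -0.021, 0.014 and -0.016 over all tested models. The 4 comparisons share the DMSO libraries and are not independent of each other.

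Ordered by mean level, 9 of the 32 pairs of neighbouring groups were called over the 8 genes. The pairs were picked for each gene by the same group means that were then tested. No matching share over all models was computed, so nothing is read from this count. yap1 and wwtr1 had a single called step, between DMSO and the next group above it. tead1 had a called step below DMSO and a called step above echinomycin, while the steps from 2ME to 0 hpa and from 0 hpa to IWR-1 were not called. tead4 had called steps below IWR-1 and above 0 hpa. lats2 had 3, so that its order was 0 hpa, echinomycin, then DMSO with 2ME, then IWR-1. No neighbouring groups were called for lats1, sav1 or nf2. Of all tested models 56.7%, 55.8% and 55.2% were called between 0 hpa and 2ME, echinomycin and IWR-1, and 44.1%, 22.5% and 34.8% were called for echinomycin over 2ME, IWR-1 over 2ME and IWR-1 over echinomycin.

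Compared per length, tead4 was the most abundant of the 8 RNAs in every group and lats1 the least abundant. tead4 stood at 37.9 ± 4.06 TPM at 0 hpa and 58.0 ± 3.93 TPM with IWR-1, and lats1 between 3.12 and 3.79 TPM in the group means. In the DMSO group the order of mean TPM was tead4, tead1, sav1, nf2, wwtr1, lats2, yap1 and lats1. With IWR-1 it was tead4, wwtr1, sav1, nf2, tead1, yap1, lats2 and lats1, so that wwtr1 moved from the fifth place to the second and tead1 from the second to the fifth. The ratio of wwtr1 to lats2 in TPM was 1.64 ± 0.422 at 0 hpa and 1.55 ± 0.475 with DMSO. It was 4.12 ± 0.554 with 2ME, 2.87 ± 0.159 with echinomycin and 6.63 ± 1.69 with IWR-1. This ratio is a description with no test, and wwtr1 lies near the end of the library axis.

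The upstream part of the pathway was followed in a list of 34 further symbols, all found, in 38 tested models. From 0 hpa to DMSO 13 of these were called higher, against 32.2% of all tested models, and 15 lower, against 30.8% (median log2 ratio -0.113). The protocadherin genes fat4 and dchs1, whose products form a receptor and ligand pair, were among the falls. fat4 read 21.8, 27.8 and 27.5 normalised CPM at 0 hpa and 2.47, 2.55 and 1.52 with DMSO, a log2 ratio of -3.57 ± 0.25 (adjusted p = 2.71e-09). dchs1 read 19.6, 35.4 and 22.5 normalised CPM at 0 hpa and 7.08, 4.38 and 9.14 with DMSO (-1.91 ± 0.27, 9.53e-06). The groups did not overlap for either gene. wwc2, an adaptor of the Lats kinases, changed by -1.66 ± 0.21, and 1 of the models named scrib, a polarity scaffold, by -1.42 ± 0.27, with the caution that reads can be split between models of that name. Once the axis score was a covariate the scrib model was at -0.40 and not called (adjusted p = 0.152), and fat4, dchs1 and wwc2 kept their calls at -3.07, -0.83 and -0.90.

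The kinase genes of the core cascade moved in opposite directions. stk3 fell from 61.7 ± 2.63 to 43.4 ± 5.50 normalised CPM between 0 hpa and DMSO (log2 ratio -0.50 ± 0.080, adjusted p = 3.69e-05), while stk4 rose from 40.4 ± 4.36 to 63.4 ± 4.09 (0.65 ± 0.081, 2.19e-06). mob1a, the gene of the Lats cofactor Mob1, had a log2 ratio of -0.09 ± 0.050 (adjusted p = 0.122), which was called lower with RLE factors (-0.12, 0.0417), DESeq2 (-0.12, 0.0232), upper-quartile factors (-0.18, 0.00369) and the axis score as a covariate (-0.18, 0.034). With compounds the signs of the kinases turned, in ratios that share the DMSO libraries with the comparison above and are not independent of it. Against DMSO stk4 was lower with 2ME (-0.32 ± 0.079), echinomycin (-0.33 ± 0.079) and IWR-1 (-0.43 ± 0.079), and stk3 was higher with 2ME (0.38 ± 0.080) and IWR-1 (0.39 ± 0.080) and at 0.14 ± 0.080 with echinomycin (adjusted p = 0.16). Without a scaling factor stk4 lost its calls with 2ME (adjusted p = 0.0715) and echinomycin (0.0503), and with the axis score as a covariate it lost all 3 against DMSO. With that covariate stk3 was at 0.20 with 2ME (adjusted p = 0.0797) and at 0.14 with IWR-1 (0.271), both no longer called. With echinomycin stk3 was then at -0.049 (0.632). Its echinomycin ratio was called without a scaling factor (0.28, 0.0168), with limma (0.29, 0.0121), with upper-quartile factors (0.24, 0.0207) and without DMSO replicate 3 (0.27, 0.00637). stk3 loaded at percentile 88.5 of the axis and stk4 at 18.9, with r = 0.84 and -0.55 across the within-group deviations of the 15 libraries.

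With compounds more models of this list were called higher than lower. Against DMSO 13 were higher and 3 lower with 2ME (14% and 16.5% of all models), 17 and 5 with echinomycin (24.6% and 27%), and 12 and 5 with IWR-1 (19.9% and 22.4%). With 2ME 8 were higher and 2 lower without 2ME replicate 1, where 3939 models were called in all. The same counts were found without DMSO replicate 2, where 3766 models were called. The median log2 ratios of the list were 0.168, 0.151 and 0.172, beside -0.021, 0.014 and -0.016 over all models. dchs1 was higher with 2ME (log2 ratio 0.90 ± 0.27), echinomycin (1.70 ± 0.27) and IWR-1 (1.45 ± 0.27), and the first of these was not called without 2ME replicate 1 (adjusted p = 0.0971) or without DMSO replicate 2 (0.109). Under the axis covariate dchs1 was at 0.18 with 2ME (adjusted p = 0.502), 0.95 with echinomycin (0.000156) and 0.46 with IWR-1 (0.0875). fat4 was at 0.70 ± 0.28 with 2ME (adjusted p = 0.0743) and higher with echinomycin (1.49 ± 0.27) and IWR-1 (1.75 ± 0.27), where it reached 6.08 ± 1.07 and 7.28 ± 1.34 normalised CPM, beside 25.7 ± 3.41 at 0 hpa. frmd6, a relative of nf2 in the same membrane complex, was higher with 2ME (0.73 ± 0.12), echinomycin (1.24 ± 0.12) and IWR-1 (0.74 ± 0.12). mpp5, the polarity gene also called pals1, was higher with 2ME (0.69 ± 0.15), echinomycin (0.71 ± 0.15) and IWR-1 (0.97 ± 0.15), and the first of these was lost with the axis score as a covariate (0.48, 0.0754). The named scrib model was higher with 2ME (1.15 ± 0.27), echinomycin (1.22 ± 0.27) and IWR-1 (1.68 ± 0.26), and with the axis score as a covariate at 0.46 (adjusted p = 0.112), 0.46 (0.063) and 0.73 (0.0214). mob1a had log2 ratios of -0.04 with 2ME and 0.03 with echinomycin, neither called. The echinomycin ratio was called without a scaling factor (0.18, adjusted p = 0.00418), with limma (0.18, 0.00245) and with upper-quartile factors (0.14, 0.0281). With IWR-1 the ratio of mob1a was -0.17 ± 0.050 (adjusted p = 0.0136), which was not called without a scaling factor (0.947) or without DMSO replicate 2 (0.0594). That IWR-1 call was also lost with limma (0.944), with upper-quartile factors (-0.12, 0.0567) and with the axis score as a covariate (-0.08, 0.421). Several of these genes lie at the same end of the axis as yap1, with loadings at percentile 99.9 for dchs1 and for scrib, 94.6 for fat4, 91.8 for frmd6 and 90.7 for mpp5. In the fit with the axis covariate the models called were 2 higher and 1 lower with 2ME, 8 and 7 with echinomycin and 5 and 5 with IWR-1. Of all 18823 tested models that fit called 2679, 7364 and 3398 in either direction, so nothing is read from these counts.

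Partners and cofactors of Yap and Tead were followed in 20 symbols, of which 19 were found and tested. From 0 hpa to DMSO 9 rose and 6 fell, with a median log2 ratio of 0.146, where 32.2% of all models were called higher and 30.8% lower. With the axis score as a covariate 6 were called higher and 2 lower, where that fit called 8523 of all models. vgll4, which competes with Yap for Tead factors, read 99.8, 102 and 104 normalised CPM at 0 hpa and 188, 175 and 180 with DMSO (log2 ratio 0.83 ± 0.048, adjusted p = 2.43e-10). tp73, a p53 relative that binds Yap, rose by 1.71 ± 0.11. wtip, a LIM protein of the limd1 family, rose by 0.75 ± 0.16, limd1 fell by 0.99 ± 0.19 (with the axis score as a covariate -0.39, adjusted p = 0.122), and amotl2 stood at 0.14 ± 0.067 (adjusted p = 0.0868). vgll2, a Tead cofactor of muscle, fell from 13.6 ± 1.48 to 0.471 ± 0.147 normalised CPM (-4.82 ± 0.31), alongside the muscle markers, of which 10 of 10 fell in this comparison.

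With compounds the partners were called in both directions, 3 higher and 3 lower with 2ME, 5 and 5 with echinomycin, and 3 and 8 with IWR-1 (median log2 ratios 0.023, -0.019 and -0.108). In either direction 30.5%, 51.6% and 42.3% of all models were called, so the shares with 2ME and echinomycin are near the background. By direction, 14% of all models were higher and 16.5% lower with 2ME, 24.6% and 27% with echinomycin, and 19.9% and 22.4% with IWR-1. No test over the list was made. With the axis score as a covariate 1 partner was called higher and 6 lower with IWR-1, where that fit called 3398 of all models. vgll4 was lower than with DMSO under echinomycin (-0.41 ± 0.048, adjusted p = 2.83e-06) and IWR-1 (-0.38 ± 0.048, 1.27e-05), and at -0.10 ± 0.047 under 2ME (0.112). tp73 was lower under echinomycin (-0.56 ± 0.097) and IWR-1 (-0.66 ± 0.098), and at -0.11 ± 0.096 under 2ME (0.402). amotl2, an angiomotin that tethers Yap at junctions and is itself a Yap target, differed in direction between compounds. It read 92.9, 94.7 and 101 normalised CPM with DMSO, 80.3, 83.1 and 79.9 with 2ME, 139, 139 and 137 with echinomycin, and 64.2, 53.4 and 60.7 with IWR-1, and no 2 of these groups overlapped. Its log2 ratio to DMSO was -0.25 ± 0.067 with 2ME (adjusted p = 0.0102), 0.52 ± 0.066 with echinomycin (6.44e-06) and -0.70 ± 0.067 with IWR-1 (8.41e-07). The 2ME call of amotl2 ended without DMSO replicate 3 (adjusted p = 0.0573) and without a scaling factor (-0.11, 0.263). vgll1, a Tead cofactor, was lower with IWR-1 (-0.64 ± 0.064) and at 0.09 ± 0.064 with 2ME and -0.11 ± 0.064 with echinomycin, neither called. wtip was lower with IWR-1 (-0.41 ± 0.15, adjusted p = 0.0352), a call of overlapping groups that was lost without DMSO replicate 1 or 3, without IWR-1 replicate 1 or 2, and in 5 of 10 alternative settings. The 14-3-3 genes ywhaz and ywhab, whose products hold phosphorylated Yap in the cytoplasm, were lower with all 3 compounds. The log2 ratio of ywhaz was -0.35 with 2ME, -0.19 with echinomycin and -0.28 with IWR-1, and that of ywhab -0.20, -0.31 and -0.23 (each ± 0.054). Without a scaling factor ywhaz lost its call with echinomycin (-0.04, adjusted p = 0.419) and ywhab those with 2ME (-0.06, 0.309) and IWR-1 (-0.07, 0.234), and without DMSO replicate 2 the calls of ywhaz with echinomycin (0.0609) and of ywhab with 2ME (0.0698) ended. In the fit with the axis covariate the call of ywhaz with 2ME and that of ywhab with echinomycin were kept and the others lost. The junction gene tjp1 was higher with 2ME (0.22 ± 0.068), echinomycin (0.25 ± 0.068) and IWR-1 (0.28 ± 0.068), and lost these calls with the axis score as a covariate. The phosphatase gene ptpn14 was higher with echinomycin (0.61 ± 0.11), with ratios of 0.18 ± 0.11 for 2ME and 0.10 ± 0.11 for IWR-1 that were not called. The tjp1 call with 2ME ended without DMSO replicate 1 or 2 or 2ME replicate 1. limd1, a LIM protein that holds back Lats, was higher with all 3 compounds (0.87, 1.32 and 0.86), with a loading at percentile 98.3 of the axis, and with the axis score as a covariate it was not called with 2ME (adjusted p = 0.0649) or IWR-1 (0.284).

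Known target genes of Yap and Tead, mostly established in mammalian cells, were followed in 22 symbols, of which 20 were found and 19 tested. From 0 hpa to DMSO 6 rose and 7 fell, with a median log2 ratio of -0.151, where 63% of all models were called, a share near that of the list. The matricellular genes ccn1 and ccn2, the targets most used as readouts of Yap, fell. ccn1 read 150, 157 and 163 normalised CPM at 0 hpa and 62.5, 69.7 and 71.6 with DMSO (log2 ratio -1.21 ± 0.10, adjusted p = 2.23e-08). ccn2 read 126, 122 and 127 normalised CPM at 0 hpa and 65.5, 64.3 and 58.5 with DMSO (-1.0 ± 0.094, 8.79e-08). ankrd1, another common readout that is also a muscle gene, fell from 2.36 ± 1.03 to 0.972 ± 0.17 (-1.26 ± 0.33, 0.00282).

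Other listed targets rose in the same comparison. nuak2, a kinase gene, read 30.9, 32.1 and 32 normalised CPM at 0 hpa and 139, 136 and 130 with DMSO (log2 ratio 2.09 ± 0.063, adjusted p = 1.79e-13). ccdc80, a matrix protein gene, rose by 1.85 ± 0.12, and areg, the gene of the growth factor amphiregulin, by 1.73 ± 0.14. nt5e, the gene of an ectonucleotidase, changed by -2.97 ± 0.53 and varied widely at 0 hpa (5.17 ± 4.08 normalised CPM). The targets on the list thus did not share a direction. The sum of fibroblast markers fell as well, from between 29900 and 30600 normalised CPM at 0 hpa to between 14500 and 16100 with DMSO.

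Against DMSO 2 targets were called higher and 3 lower with 2ME, 6 and 4 with echinomycin, and 3 and 8 with IWR-1 (median log2 ratios -0.084, 0.105 and -0.265). Of all models 30.5%, 51.6% and 42.3% were called, so the shares with 2ME and echinomycin are near the background. By direction, 14% of all models were higher and 16.5% lower with 2ME, 24.6% and 27% with echinomycin, and 19.9% and 22.4% with IWR-1. No test over the list was made. With the axis score as a covariate 1 target was called higher and 4 lower with IWR-1, where that fit called 3398 of all models. Without DMSO replicate 2 the targets called with 2ME were 1 higher and 1 lower, where 3766 models were called in all. ccn1 read 72.9, 60.8 and 58.4 normalised CPM with 2ME, 96.8, 105 and 106 with echinomycin, and 67.8, 51.0 and 50.9 with IWR-1. ccn1 was higher with echinomycin than with DMSO (log2 ratio 0.59 ± 0.10, adjusted p = 0.000126). The ratio with IWR-1, -0.26 ± 0.10, was called at an adjusted p of 0.0473 with overlapping groups. It lost that call in 8 of 10 alternative settings and in 11 of the 15 fits that left out a library, with adjusted p up to 0.198 without IWR-1 replicate 2 or 3. ccn2 read 73.6, 67.8 and 55.7 normalised CPM with 2ME, 78.4, 84.8 and 90.5 with echinomycin, and 79.7, 98.3 and 94.4 with IWR-1. It was higher than with DMSO under echinomycin (0.43 ± 0.094, adjusted p = 0.00107) and IWR-1 (0.53 ± 0.094, 0.00025), and at 0.07 ± 0.094 under 2ME (0.629). The IWR-1 ratio of ccn2 was 0.38 with the axis score as a covariate (adjusted p = 0.0567). ccn1 and ccn2 thus carried different signs under IWR-1.

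nuak2 and ccdc80, among the targets that had risen by 24 hpa, were lower with each compound. nuak2 had a log2 ratio to DMSO of -0.39 ± 0.058 with 2ME, -0.70 ± 0.058 with echinomycin and -0.98 ± 0.059 with IWR-1, and ccdc80 one of -0.41, -0.88 and -0.90. The 2ME call of ccdc80 was lost with the axis score as a covariate (-0.32, adjusted p = 0.154), without a scaling factor (adjusted p = 0.0704) and without DMSO replicate 1 or 2 or 2ME replicate 1. arhgef17 was lower with echinomycin (-0.68 ± 0.11) and IWR-1 (-0.90 ± 0.11), and at -0.25 ± 0.11 with 2ME (adjusted p = 0.0781). areg was lower with 2ME (-0.52 ± 0.13) and IWR-1 (-0.42 ± 0.13), and at -0.21 ± 0.13 with echinomycin (0.182). Without DMSO replicate 2 neither call of areg was left (adjusted p = 0.0548 and 0.115), with IWR-1 it was also lost without IWR-1 replicate 1 (0.0667) and without a scaling factor (-0.26, 0.111), and both were lost with the axis score as a covariate. ankrd1 had log2 ratios of 0.18 ± 0.34, -0.17 ± 0.35 and -0.48 ± 0.36 with the 3 compounds, none called. axl, a receptor tyrosine kinase gene, was higher with 2ME (0.57 ± 0.078), echinomycin (0.72 ± 0.077) and IWR-1 (0.78 ± 0.077). Fibroblast markers summed to between 10700 and 11800 normalised CPM with 2ME, 21500 to 23400 with echinomycin and 14000 to 15500 with IWR-1. The sums do not stand for each of the 7 markers. Against DMSO 1 was called higher and 2 lower with 2ME, 7 higher with echinomycin, and 5 higher and 0 lower with IWR-1. The median log2 ratios of these markers were 0.09, 1.265 and 0.71. Their part in the values of the matrix genes was not tested.

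**Figure D4:**
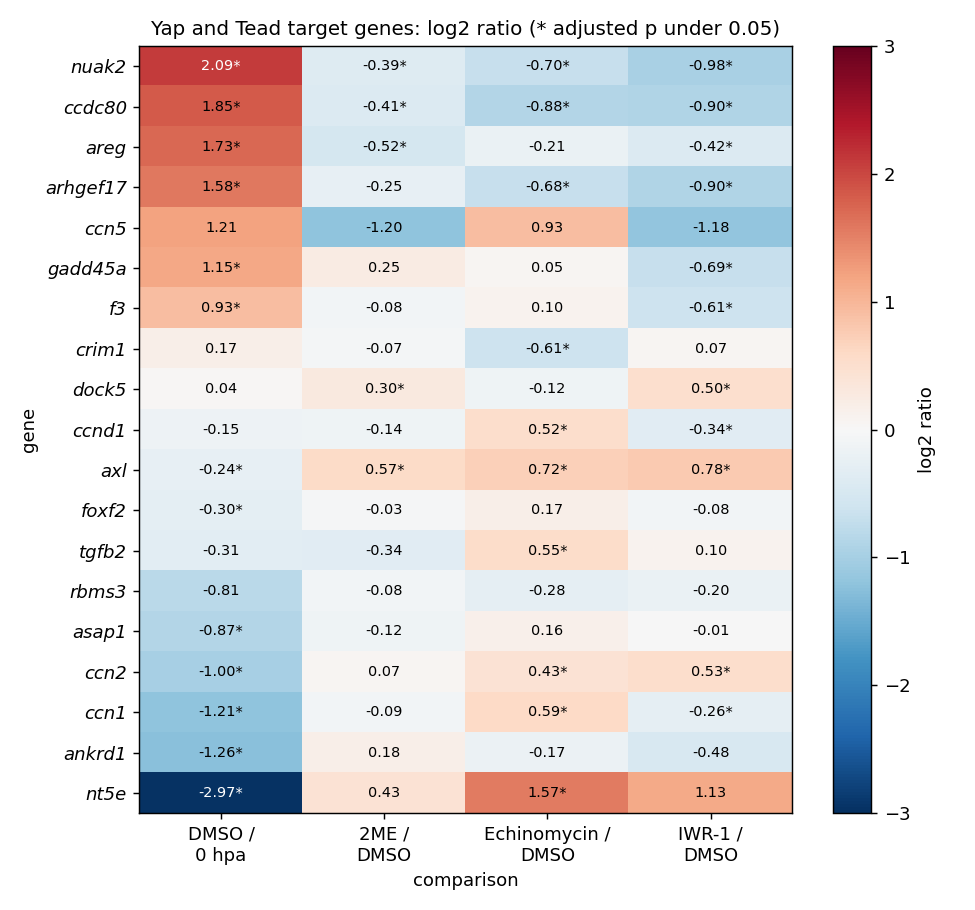
Log2 ratios of the 19 tested target genes of Yap and Tead (vertical axis, ordered by the first comparison) in the 4 comparisons (horizontal axis), as colour and number, with a star where the adjusted p is under 0.05. The column of DMSO against 0 hpa runs from the rise of nuak2 by 2.09 at the top to nt5e at -2.97 at the bottom, and the column of 2ME against DMSO has the fewest stars, 5.

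Genes whose 5 group means most resembled those of yap1 were sought among 10342 models with a usable name and a mean of at least 5 CPM, by the root mean square difference of centred log2 group means. The closest were foxn2, a forkhead factor (0.0378 log2 units), cds2, an enzyme of phospholipid synthesis (0.0441), elk4, an ETS factor (0.0519), and slc39a10, a zinc transporter (0.0545). foxn2 stood at 6.55 normalised CPM at 0 hpa, 3.66 with DMSO and 8.0 with IWR-1. These genes also lie toward the yap1 end of the axis, with loadings at percentile 94.6, 88.7, 95.9 and 99.5. For tead4 the closest were atxn7l1 (0.0182), chd7, a chromatin remodeller (0.0234), trhd (0.0308) and zfyve21 (0.0337). The likeness covers 5 group means only and is a description.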

How the data were processed

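Total RNA of tail tissue was measured in 15 libraries, grouped by sample title. Per the submitters' processing notes the authors used Trim Galore 0.6.5, kallisto and edgeR. No version of the last 2, and no genome build, is given in the sources used here. Per the file headers, the deposited estimated counts and TPM are those of 1 transcript for each gene model. Of the estimated counts 21.4% are not whole (tolerance 1e-06). Counts were rounded. TPM served only for levels between genes, the deposited effective length only as an offset, and the authors' deposited CPM table, which holds 15892 models with all 8 genes among them, only for limma.

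All 15 libraries were fitted in edgeR 4.0.16 (R 4.3.3) with 1 coefficient per group, TMM factors (0.909 to 1.07), the quasi-likelihood test and the low-count filter of filterByExpr (10 per library, 15 in total), with 10 residual degrees of freedom and a common biological coefficient of variation of 0.0936. Adjusted p-values are Benjamini-Hochberg values over the 18823 models of each comparison. The SE is the absolute log2 ratio over the square root of the F value of the quasi-likelihood test. Intervals are that SE times a t value with 10 degrees of freedom, at the level 0.95 and unadjusted. The p-values are those of the quasi-likelihood test itself, so an interval and its p-value need not match exactly. The procedure was also run on simulated counts with known changes, drawn independently for each library, and the outcome is not reported here. Such counts lack the shared library axis, so that run cannot speak to calls that depend on it. Normalised CPM are the counts scaled by the TMM-adjusted library size. Replicates correlated at 0.9895 to 0.9945 in log2 CPM across genes, which are not independent, and no pair was merged. Names are those of the files; the reference table, of assembly UCB_Xtro_10.0, gave synonyms only, and no coordinates or sequences are given.

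The genes, lists and tests were chosen with earlier results of these data known. Beside the 8 genes, ccn1, ccn2, ankrd1, vgll4, amotl2, stk3, stk4 and mob1a are named, with up to 4 further called genes per list and comparison of the largest log2 ratio among those with at least 5 CPM in a group. Values for other listed genes enter counts only, and 1 gene named by this rule is not reported here. Settings were varied in turn: upper-quartile, RLE or no scaling factors; every model kept, or those with a mean of at least 10 counts; DESeq2 1.42.0; limma 3.58.1 on log2(CPM + 1); an effective-length offset; a replicate block; a fit of the 2 compared groups; and each library left out. The library axis as a covariate was added after the data were seen. Python 3.11.15 with numpy 2.4.6, pandas 2.3.3, scipy 1.17.1 and matplotlib 3.10.9 made the tables and drawings.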

Additional observations from a re-analysis of the deposited data

How the results depend on the processing

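Over the alternatives chosen at the start no called value of a gene changed its sign. In DMSO over 0 hpa and the 3 comparisons with DMSO, the calls of yap1, wwtr1, tead1, lats2 and tead4 were kept. In the other comparisons those of lats2 and tead1 were kept too (adjusted p up to 0.0499), while wwtr1 for IWR-1 over 0 hpa and tead4 for IWR-1 over echinomycin were lost in some. The log2 ratio of yap1 ranged from -1.11 to -0.74 for DMSO over 0 hpa and, over DMSO, from 0.67 to 1.04 with 2ME, 0.94 to 1.33 with echinomycin and 1.02 to 1.39 with IWR-1. Leaving out each library in turn gave 5 to 6 genes called for DMSO over 0 hpa, 3 to 4 for 2ME, 4 to 4 for echinomycin, 5 to 5 for IWR-1 and 8 to 10 called pairs of neighbouring groups. With no scaling factor, or limma on the deposited CPM, 7 genes were called with echinomycin in place of 4, and 16 neighbouring pairs in place of 9. Without a scaling factor the median log2 ratio of all models moved from -0.021 to 0.119 with 2ME, from 0.014 to 0.161 with echinomycin and from -0.016 to 0.144 with IWR-1. With the library axis as a covariate 3 genes were called for DMSO over 0 hpa, 2 for 2ME and 3 for IWR-1, in place of 6, 4 and 5. With echinomycin yap1, wwtr1, tead1 and lats2 kept their calls. Over all models the number called fell too, to 8523 from 11854 for DMSO over 0 hpa and to 2679 from 5749 for 2ME. It fell to 7364 from 9709 for echinomycin and to 3398 from 7960 for IWR-1. Same-numbered replicates of different groups did not deviate together (r from -0.198 to 0.148 over 30 pairs, 4 over 0.1, and 4 of 15 libraries correlated best with their own number). With so few libraries per group this cannot show whether same-numbered libraries shared a clutch, pool or day, and the labels do not say. A fit with a replicate block called 6, 4, 4 and 5 genes and 9 neighbouring pairs. The cause of these changes was not tested.

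Values that took the other sign were small, and uncalled in both settings, except that the fall of ptpn14 from 0 hpa to DMSO (-0.28, adjusted p = 0.0308) became 0.014 with the axis (0.95). For tead4 with 2ME the log2 ratio was 0.119 with limma and without scaling, and 0.001 with 2 groups or upper-quartile factors; with echinomycin it was -0.002 with the axis and between -0.001 (without echinomycin replicate 2) and 0.04 with a library left out. For lats1, DMSO over 0 hpa was -0.002 with DESeq2, -0.003 with RLE, -0.02 with the axis, -0.067 with upper quartiles, -0.01 without 0 hpa replicate 3, -0.017 without DMSO replicate 2, and between -0.079 and 0.11 without 0 hpa replicates 2 and 1. lats1 with echinomycin was 0.02 with the axis, 0.124 with limma, 0.134 unscaled, 0.013 with 2 groups, 0.09 with upper quartiles, 0.003 without any 1 of the 0 hpa libraries, 0.028 without DMSO replicate 2 and between -0.05 and 0.03 without echinomycin replicates 3 and 1. lats1 with IWR-1 was 0.007 with DESeq2 and RLE, 0.031 with the axis and with upper quartiles, 0.134 with limma, 0.148 unscaled, 0.014 with 2 groups, 0.022 without DMSO replicate 2 and between -0.05 and 0.055 without IWR-1 replicates 2 and 1. lats2 with 2ME was 0.016 with limma and 0.013 unscaled, and sav1 with IWR-1 was 0.106 and 0.107. nf2 with IWR-1 was 0.004 with DESeq2 and RLE, 0.14 with limma, 0.145 unscaled, 0.012 with 2 groups, 0.028 with upper quartiles, 0.005 without DMSO replicate 1 and between -0.07 and 0.032 without IWR-1 replicates 3 and 2. ankrd1 with 2ME was between -0.027 (without 2ME replicate 3) and 0.31 with a library left out, and 0.009 with echinomycin under limma. With 2ME, ccn1 was 0.049 with limma and 0.055 unscaled, ccn2 was -0.046 with the axis and between -0.022 and 0.17 without 2ME replicates 1 and 3, mob1a was 0.02 with the axis, 0.098 with limma and 0.099 unscaled, and vgll4 was 0.037 and 0.035. stk3 with echinomycin was -0.049 with the axis. yap1, at 4 to 15 normalised CPM, has the widest SE of the 8 genes together with wwtr1, about 0.20 on the log2 scale. The SE was about 0.10 for lats1, at 10.9 to 14.1 normalised CPM, and 0.048 for tead4.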
